A study of Homo sapiens with 12 samples.

Results

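Clustered replication-dependent histone genes encode the bulk of the H1, H2A, H2B, H3 and H4 proteins that package newly made DNA. Their transcripts are made mainly in S phase, and most end in a conserved stem-loop instead of a poly(A) tail. The stem-loop is bound by SLBP and cut by a complex that holds the U7 small nuclear RNA. When dividing cells leave the cell cycle, some of these genes can instead give spliced or longer transcripts that carry a poly(A) tail, and such transcripts can be caught by poly(A) capture. The genes were chosen by symbol (HIST1H, HIST2H, HIST3H or HIST4H at the start) and by level: the raw counts summed over all 12 libraries had to be at least 20. Of 89 symbols with these prefixes in a table of 55773 entries, 40 met that sum, 37 of them protein coding and 3 pseudogenes (HIST2H2BC, HIST2H2BD and HIST1H1PS1). They comprised 4 H1, 9 H2A, 14 H2B, 7 H3 and 6 H4 genes. On the hg19 coordinates of the table, 30 lay in the HIST1 cluster on chromosome 6, 7 in the HIST2 cluster and 2 in the HIST3 cluster on chromosome 1, and HIST4H4 lay alone on chromosome 12. Just inside the limit were HIST1H1D and HIST1H2BE with 23 summed counts each, and just outside were HIST2H4B with 18 and HIST2H2AA3 and HIST2H2AB with 15 each. Another 33 of the symbols were listed at 0 in all libraries.

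The libraries came from RBE, an established human cholangiocarcinoma line whose IDH1 is mutant, which makes the metabolite 2-hydroxyglutarate. The AG120_Nutlin group had 22 days of 5 µM AG-120 (ivosidenib, an inhibitor of mutant IDH1) and then 72 hours of 5 µM Nutlin, a compound that blocks MDM2 and so raises p53. The vehicle_Nutlin group had 22 days of DMSO and the same Nutlin exposure. The AG120 group had AG-120 alone and the vehicle group DMSO alone, so that all 4 groups share one line and one length of pretreatment. The study asked how 2-hydroxyglutarate changes the expression programme run by p53. Each group had 3 libraries of poly(A)-captured RNA, with totals of 16840161 to 27499433 counts. Nothing in the labels says that replicates were grown apart, and every p-value therefore reflects the scatter of these libraries, which may be technical.

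MDM2, a direct p53 target, fitted the Nutlin labels: it averaged 3343 ± 16 CPM in AG120_Nutlin and 163 ± 26.5 CPM in AG120, and 2847 ± 694 CPM in vehicle_Nutlin and 146 ± 6.97 CPM in vehicle (SD, n = 3 each). CPM is the count scaled to the size of the library, here with TMM factors. The cholangiocyte markers KRT7, KRT19, EPCAM and SOX9 were all measured in every group (16.8 CPM or more on average), while the leukocyte marker CD3E and the fibroblast markers DCN and LUM were at 0 in all 12 libraries. The fibroblast gene COL1A2 was at 0.36 CPM or less and the leukocyte gene PTPRC at 0.113 CPM or less in each library. The endothelial genes VWF and CDH5 summed to 0.543 to 1.0 CPM in AG120_Nutlin, 0 to 0.556 in vehicle_Nutlin, 0.158 to 0.294 in AG120 and 0.206 to 0.551 in vehicle, nearly all of it VWF, and their part in the results was not tested. RNAs that lack a poly(A) tail (RMRP, RPPH1 and RN7SK) were present in the captured RNA and uneven between libraries. Their summed level was 3.01, 5.42 and 85.9 CPM in the AG120_Nutlin libraries, 3.07, 415 and 2.14 in vehicle_Nutlin, 111, 52.4 and 1.37 in AG120 and 1.0, 1.24 and 5.64 in vehicle. Thus AG120_Nutlin replicate 3, vehicle_Nutlin replicate 2 and AG120 replicates 1 and 2 carried more of such RNA than the other 8 libraries, and calls that rest on them are given below with and without them.

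The stem-loop itself is shown here because transcripts that end just after it carry no poly(A) tail. In the GENCODE release 29 transcripts (GRCh38), 22 of the 40 members had an annotated transcript that contains the histone stem-loop motif of 16 bases, searched as a degenerate pattern on the transcript strand. For 18 of these at least 1 transcript ran over 100 bases past it. Among all 83129 coding transcripts the motif occurred in 77 (0.0926%), 36 of them from genes with the HIST prefixes. The members held 6 distinct forms of the 16 bases, and 1 example of each follows, with 5 bases on either side, 5′ to 3′ on the transcript and with the stem-loop in capitals.
HIST1H2AC: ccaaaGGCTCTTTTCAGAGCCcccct
HIST1H2BD: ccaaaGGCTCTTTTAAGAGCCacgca
HIST1H3E: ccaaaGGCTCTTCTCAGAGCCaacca
HIST1H2AG: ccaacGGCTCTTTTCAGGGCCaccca
HIST1H4H: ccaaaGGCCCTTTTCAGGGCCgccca
HIST1H4I: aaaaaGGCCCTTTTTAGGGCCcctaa
HIST2H2BE carried the same 16 bases as HIST1H2AC. Its annotated transcript went on for 1729 bases past the stem-loop, and that of HIST1H2AC for up to 1128 bases. No stem-loop was annotated within the transcript of HIST1H2BK, of HIST2H2AC or of HIST1H3B, among others. The match describes annotated transcripts only, since the deposited counts do not tell which 3′ end a read came from.

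Taken over the 40 members, histone transcripts made up a larger share of the captured RNA in both Nutlin groups. Their summed level was 415, 421 and 421 CPM in AG120_Nutlin, 396, 397 and 476 in vehicle_Nutlin, 126, 128 and 116 in AG120 and 93.6, 92.2 and 87.4 in vehicle. The Nutlin libraries all lay above all libraries without Nutlin. In bulk RNA, a change in the number of cells that make a transcript cannot be told apart from a change in the amount per cell. Reads were concentrated on few genes: HIST1H2BK alone held 39.1% of the 61619 member counts, HIST1H2BK and HIST1H2AC together 59.6%, and these with HIST3H2A, HIST1H1C, HIST1H2BD and HIST2H2BE 85.9%. By class, H2B members summed to 246 ± 2.95 CPM in AG120_Nutlin, 238 ± 11.3 in vehicle_Nutlin, 67.5 ± 5.32 in AG120 and 54.9 ± 2.39 in vehicle (mean ± SD, n = 3). H2A members summed to 129 ± 3.43, 139 ± 29.2, 33.2 ± 0.267 and 24.9 ± 0.64 CPM in the same group order. The H3 and H4 members, whose proteins are as abundant in chromatin as H2A and H2B, made up little of the captured reads: H3 members summed to 8.44 ± 0.687, 9.2 ± 1.06, 6.83 ± 3.32 and 2.49 ± 0.648 CPM, and H4 members to 6.85 ± 1.0, 5.98 ± 0.936, 5.56 ± 3.73 and 1.9 ± 0.116 CPM.

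**Figure D1:**
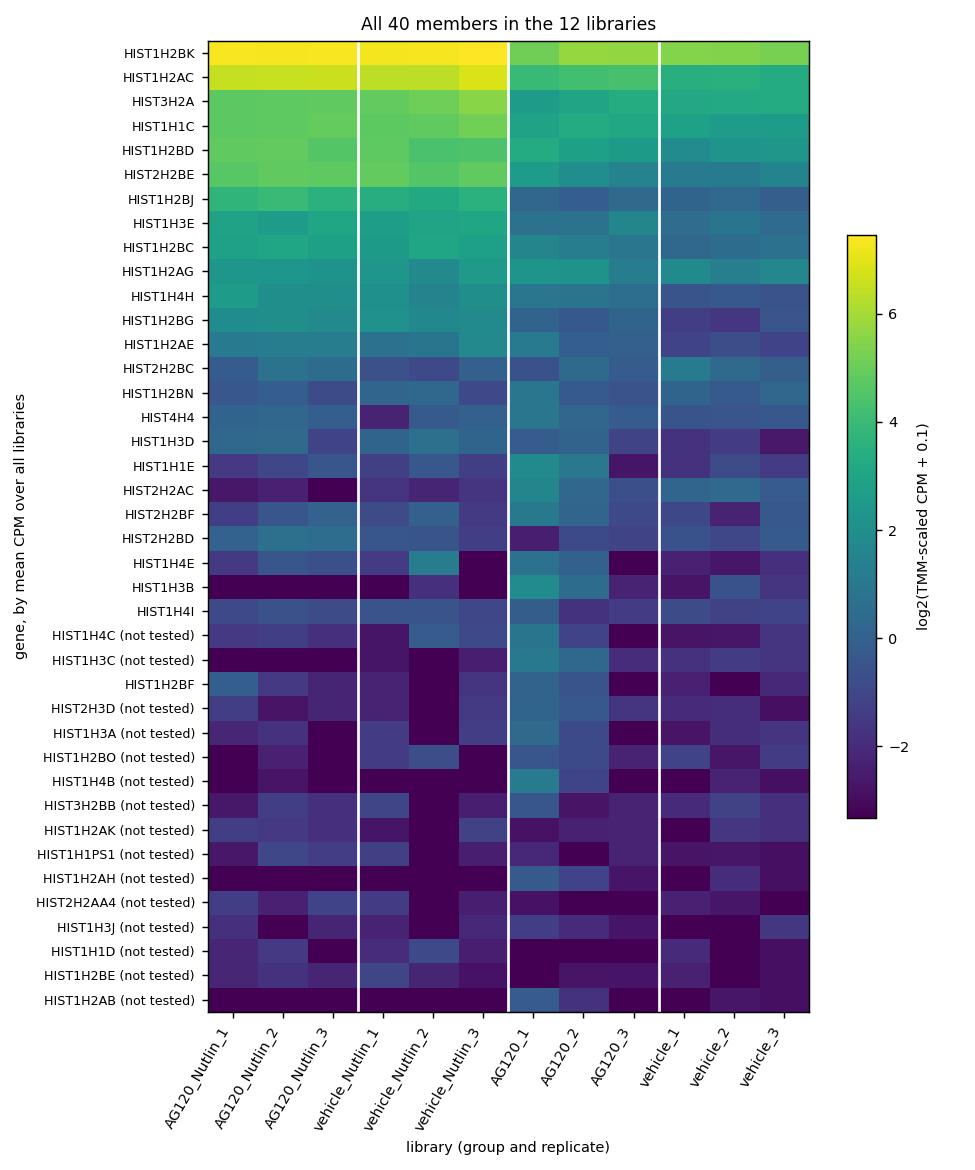
Level of each of the 40 members (rows, by mean level) in each library (columns, grouped) as log2(CPM + 0.1), where brighter colours are higher. The rows at the top are bright in the 6 Nutlin libraries, and a band of low rows is bright in AG120 replicate 1 and, less so, in AG120 replicate 2.

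Of the 40 members, 25 passed the filter on low counts and were tested among 15691 genes in all. The 6 members with the most reads were called higher under Nutlin in both pretreatments, and their read totals include the Nutlin libraries. In AG-120-pretreated cells (AG120_Nutlin over AG120), 12 of the 25 were called higher and 2 lower at an adjusted p of at most 0.05, against 27.0% of all 15691 tested genes called higher and 28.8% called lower. In vehicle-pretreated cells (vehicle_Nutlin over vehicle), 13 were called higher and 1 lower, against 26.8% and 27.1% of all tested genes. The median log2 fold change of the 25 was 0.79 in AG-120-pretreated cells and 1.97 in vehicle-pretreated cells, beside 0.00 and -0.02 over all tested genes. Calls of higher were shared by 11 members. These counts describe the members that passed the filter and are no test of the family: 6 of the 25 passed only with the help of Nutlin libraries, and 5 only with the help of libraries without Nutlin. The comparisons with AG-120 and with vehicle use different libraries, and in none of the 11 shared members, which were picked by their calls, did the Nutlin libraries overlap the matching libraries without Nutlin. Over all tested genes, 35.1% lay wholly above and 35.1% wholly below after AG-120, and 28.3% and 30.9% after vehicle.

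Among the core H2A and H2B genes, HIST1H2BK, the member with the most reads, stood at 165, 159 and 165 CPM in the AG120_Nutlin libraries, 153, 160 and 176 in vehicle_Nutlin, 34.4, 53.5 and 53 in AG120 and 44.4, 42.9 and 37.6 in vehicle. Its log2 fold change was 1.79 ± 0.15 (SE, adjusted p = 3.75e-07) in AG-120-pretreated cells and 1.97 ± 0.15 (SE, adjusted p = 1.87e-07) in vehicle-pretreated cells. The Nutlin libraries lay close together, and the lowest of them was far above the highest library without Nutlin. HIST1H2AC, an H2A gene known to give poly(A) transcripts in differentiated cells, had 91.1, 94.4 and 96.8 CPM in the AG120_Nutlin libraries, 84.7, 83.8 and 117 in vehicle_Nutlin, 15.8, 18.2 and 19.7 in AG120 and 11, 11.5 and 9.94 in vehicle. Nutlin raised it by 2.40 ± 0.14 (SE, adjusted p = 1.19e-08) on the log2 scale after AG-120 and by 3.14 ± 0.14 (SE, adjusted p = 1.76e-09) after vehicle. All 3 AG120 libraries lay above all 3 vehicle libraries, while the AG120_Nutlin and vehicle_Nutlin libraries overlapped. The AG120 libraries lay wholly above vehicle in 9 of the 25 tested members and in 11.4% of all tested genes. They lay wholly below in 0 members and in 10.3% of all tested genes.

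HIST2H2BE, an H2B gene that also gives a longer poly(A) transcript, was found at 25.2, 28.6 and 27.3 CPM in the AG120_Nutlin libraries, 29.1, 24.1 and 28 in vehicle_Nutlin, 6.04, 3.83 and 2.64 in AG120 and 2.11, 2.04 and 2.85 in vehicle. It rose by 2.68 ± 0.23 (SE, adjusted p = 5.52e-07) after AG-120 and by 3.51 ± 0.25 (SE, adjusted p = 8.22e-08) after vehicle. The 6 Nutlin libraries spanned a narrow range, and AG120 replicate 1 was the highest without Nutlin. For HIST1H2BJ, a further H2B gene, the values were 13, 15.1 and 11.8 CPM in the AG120_Nutlin libraries, 10.5, 9.41 and 11.8 in vehicle_Nutlin, 1.07, 0.834 and 1.21 in AG120 and 1.0, 1.19 and 0.86 in vehicle. This gene had the largest log2 fold change in AG-120-pretreated cells, 3.67 ± 0.20 (SE, adjusted p = 5.76e-09), with 3.39 ± 0.20 (SE, adjusted p = 1.45e-08) in vehicle-pretreated cells. Its level before Nutlin was nearly the same in both pretreatments, at about 1 CPM.

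HIST1H2BD, an H2B gene, measured 28.2, 29.3 and 24 CPM in the AG120_Nutlin libraries, 27.6, 20.3 and 21.8 in vehicle_Nutlin, 9.94, 6.87 and 5.85 in AG120 and 3.61, 4.64 and 5.09 in vehicle. The rise was 1.84 ± 0.20 (SE, adjusted p = 4.60e-06) and 2.38 ± 0.21 (SE, adjusted p = 6.74e-07) in AG-120-pretreated and vehicle-pretreated cells. HIST3H2A, the H2A gene of the small HIST3 cluster, had 26.5, 27.2 and 28.2 CPM in the AG120_Nutlin libraries, 29.6, 34 and 46.7 in vehicle_Nutlin, 5.96, 7.8 and 10.1 in AG120 and 8.97, 9.5 and 9.87 in vehicle. It rose by 1.78 ± 0.19 (SE, adjusted p = 4.57e-06) after AG-120 and by 1.96 ± 0.19 (SE, adjusted p = 1.92e-06) after vehicle, with vehicle_Nutlin replicate 3 the highest library.

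HIST1H1C, the linker histone gene with the most reads, stood at 27.1, 27.7 and 29.9 CPM in the AG120_Nutlin libraries, 26.9, 28 and 36.3 in vehicle_Nutlin, 7.33, 9.86 and 8.38 in AG120 and 7.17, 5.94 and 6.12 in vehicle. Its log2 fold changes were 1.73 ± 0.15 (SE, adjusted p = 5.44e-07) after AG-120 and 2.25 ± 0.15 (SE, adjusted p = 6.13e-08) after vehicle. The other tested linker gene, HIST1H1E, was low: 0.241, 0.394 and 0.647 CPM in the AG120_Nutlin libraries, 0.318, 0.659 and 0.299 in vehicle_Nutlin, 3.34, 1.91 and 0.0527 in AG120 and 0.201, 0.453 and 0.275 in vehicle. It passed neither test (-2.05, adjusted p = 0.0518 after AG-120, and 0.44, adjusted p = 0.723 after vehicle), and AG120 replicates 1 and 2 held its highest values. DESeq2 called it lower after AG-120 (-2.06, adjusted p = 0.0290). So did edgeR with DESeq2 size factors, library totals or no filter (adjusted p = 0.0494, 0.0492 and 0.00159).

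**Figure D2:**
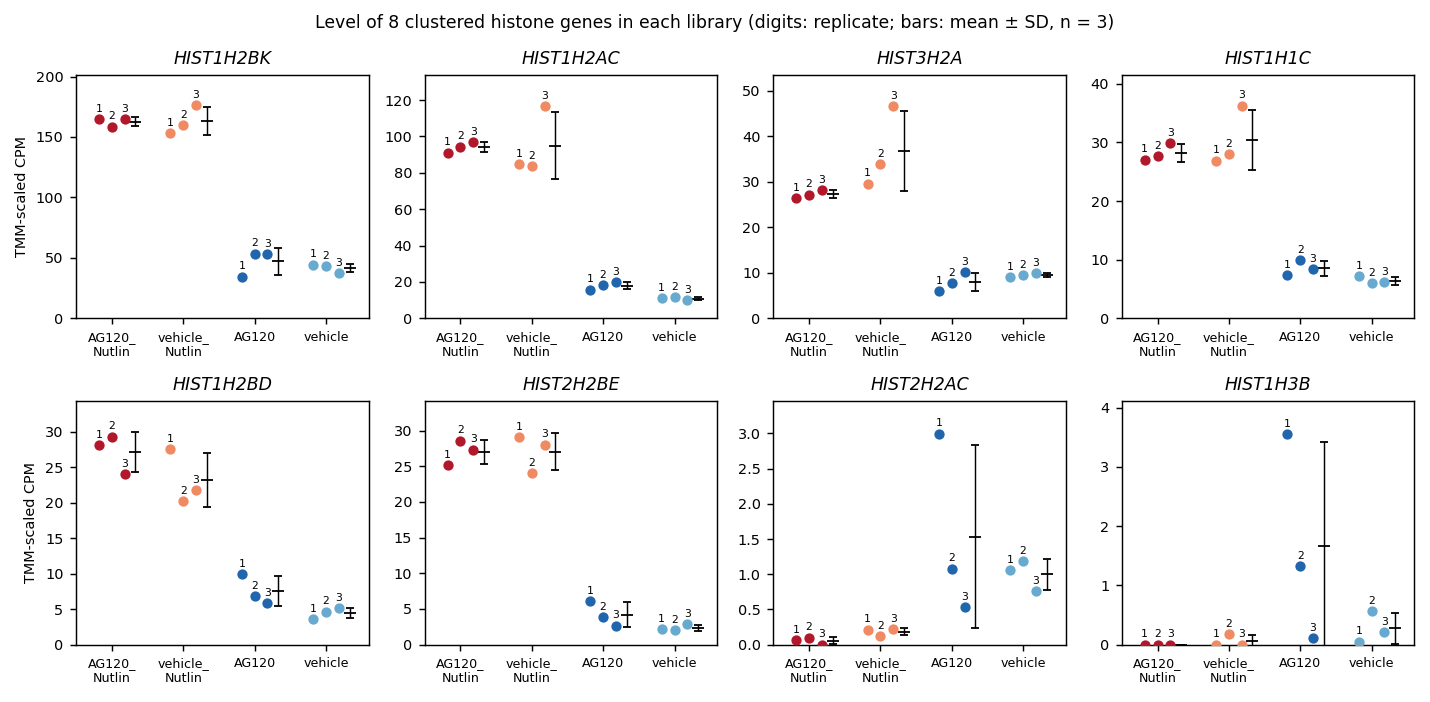
CPM of 8 members in each library, by group; the digit beside a point is the replicate and the bar is mean ± SD over 3 libraries. The first 6 genes are high in all 6 Nutlin libraries, HIST2H2AC is low in all 6, and HIST1H3B rests on AG120 replicates 1 and 2 (3.56 and 1.32 CPM).

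Smaller members rose too. HIST1H2BC (H2B) had 7.05, 7.89 and 6.88 CPM in the AG120_Nutlin libraries, 5.82, 7.91 and 6.63 in vehicle_Nutlin, 2.91, 2.31 and 1.79 in AG120 and 1.1, 1.3 and 1.51 in vehicle, with log2 fold changes of 1.63 ± 0.21 (SE, adjusted p = 1.95e-05) and 2.36 ± 0.22 (SE, adjusted p = 1.21e-06) after AG-120 and after vehicle. HIST1H2BG (H2B) had 3.68, 4.04 and 3.47 CPM in the AG120_Nutlin libraries, 4.24, 3.18 and 3.51 in vehicle_Nutlin, 0.986, 0.687 and 1.0 in AG120 and 0.301, 0.226 and 0.619 in vehicle, with 2.06 ± 0.29 (SE, adjusted p = 5.43e-05) and 3.15 ± 0.32 (SE, adjusted p = 2.94e-06). In both, each Nutlin library lay above each library without Nutlin. HIST1H3E, the H3 gene with the most reads, had 7.29, 6.21 and 8.0 CPM in the AG120_Nutlin libraries, 6.51, 7.73 and 8.34 in vehicle_Nutlin, 1.54, 1.52 and 2.95 in AG120 and 1.35, 1.75 and 1.27 in vehicle, and rose by 1.84 ± 0.25 (SE, adjusted p = 3.75e-05) and 2.38 ± 0.26 (SE, adjusted p = 5.32e-06). HIST1H4H, the H4 gene with the most reads, had 6.03, 3.99 and 4.0 CPM in the AG120_Nutlin libraries, 4.18, 2.7 and 4.02 in vehicle_Nutlin, 1.76, 1.67 and 1.37 in AG120 and 0.602, 0.679 and 0.585 in vehicle, and rose by 1.54 ± 0.25 (SE, adjusted p = 1.54e-04) and 2.55 ± 0.28 (SE, adjusted p = 5.26e-06). Calls of higher were thus made in at least 1 gene of each of the 5 histone classes. After AG-120 they covered 1 of 2 tested H1, 2 of 5 H2A and 7 of 11 H2B members. They also covered 1 of 3 H3 and 1 of 4 H4 members. After vehicle they covered 1, 3, 6, 2 and 1 members of these classes. Over all tested genes, 27.0% and 26.8% were called higher, so that 1 of 3 or 1 of 4 lies near that share.

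By the main test, a call of higher was made in 1 pretreatment for 3 members, and the difference between pretreatments passed its own test in none of them. HIST1H2AE (H2A) had 2.05, 2.27 and 2.23 CPM in the AG120_Nutlin libraries, 1.54, 1.74 and 3.29 in vehicle_Nutlin, 2.01, 0.834 and 0.896 in AG120 and 0.351, 0.509 and 0.344 in vehicle, with 0.79 ± 0.38 (SE, adjusted p = 0.0997) after AG-120, 2.47 ± 0.44 (SE, adjusted p = 3.76e-04) after vehicle and an interaction of -1.68 ± 0.58 (SE, adjusted p = 0.313). HIST1H3D (H3) had 1.15, 1.23 and 0.353 CPM in the AG120_Nutlin libraries, 1.01, 1.5 and 1.03 in vehicle_Nutlin, 0.771, 0.981 and 0.369 in AG120 and 0.201, 0.283 and 0.0688 in vehicle, with 0.36 ± 0.52 (SE, adjusted p = 0.58), 2.73 ± 0.61 (SE, adjusted p = 0.00207) and an interaction of -2.37 ± 0.81 (SE, adjusted p = 0.307). In both genes the AG120 libraries lay above the vehicle libraries, as in 11.4% of all tested genes, and the Nutlin groups overlapped. HIST1H2AE was called higher after AG-120 too when AG120 replicate 1 was left out (1.33, edgeR adjusted p = 0.0122). The same held for limma with voom and library weights (1.27, adjusted p = 1.67e-04). HIST2H2BD, an H2B pseudogene, had 0.965, 1.48 and 1.35 CPM in the AG120_Nutlin libraries, 0.635, 0.599 and 0.299 in vehicle_Nutlin, 0.0857, 0.442 and 0.369 in AG120 and 0.551, 0.396 and 0.722 in vehicle, with 2.10 ± 0.51 (SE, adjusted p = 0.00343), -0.18 ± 0.50 (SE, adjusted p = 0.787) and an interaction of 2.27 ± 0.72 (SE, adjusted p = 0.269). Its call was lost when the 4 libraries with much tail-less RNA were left out (log2 fold change 1.72), where AG120 kept replicate 3 alone. HIST1H3D and HIST2H2BD passed the filter on low counts only with the help of the Nutlin libraries.

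**Figure D3:**
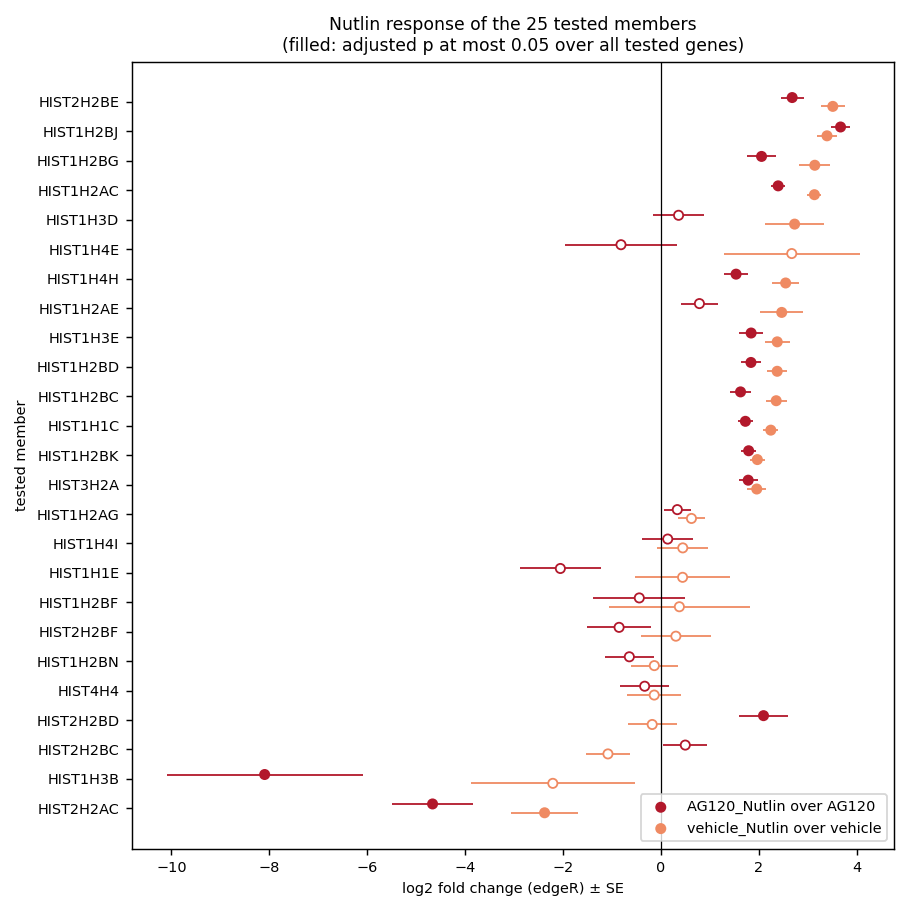
Log2 fold change ± SE of the 25 tested members under Nutlin in AG-120-pretreated cells (dark red, upper point of each pair) and vehicle-pretreated cells (orange), with filled points for calls over all tested genes. Of the members, 11 are filled and to the right in both, and HIST2H2AC is filled and to the left in both (-4.67 and -2.38); the value of HIST1H3B after AG-120 is a fit against a group at 0 counts.

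HIST2H2AC, an H2A gene, went the other way. Its counts were 1, 2 and 0 in AG120_Nutlin, 4, 2 and 5 in vehicle_Nutlin, 70, 22 and 10 in AG120 and 21, 21 and 22 in vehicle, and its levels were 0.0603, 0.0986 and 0 CPM in the AG120_Nutlin libraries, 0.212, 0.12 and 0.214 in vehicle_Nutlin, 3.0, 1.08 and 0.527 in AG120 and 1.05, 1.19 and 0.757 in vehicle. The log2 fold change was -4.67 ± 0.83 (SE, adjusted p = 3.46e-04) after AG-120 and -2.38 ± 0.69 (SE, adjusted p = 0.0109) after vehicle, and each Nutlin library lay below each matching library without Nutlin. Because AG120_Nutlin had 3 counts in all, the pooled level in AG120 is better given as 29.2 times that in AG120_Nutlin with an exact 95% interval of 9.72 to 144, which covers counting error only. Without AG120 replicate 1 it was 14.6 times (4.57 to 74.6). Without the 4 libraries with much tail-less RNA the fall was still called after vehicle, at -2.18 (adjusted p = 0.00630). After AG-120 the log2 fold change was then -2.61, against AG120 replicate 3 alone. Reads shared with the near-identical genes HIST2H2AA3 and HIST2H2AA4 could not be placed with certainty.

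HIST1H3B, an H3 gene, was also called lower after AG-120. Its counts were 0, 0 and 0 in AG120_Nutlin, 0, 3 and 0 in vehicle_Nutlin, 83, 27 and 2 in AG120 and 1, 10 and 6 in vehicle. With AG120_Nutlin at 0, the level there was at least 32.1-fold lower than in AG120 (floor of 3 counts over the group; edgeR adjusted p = 0.00525). Nearly all of its AG120 counts came from replicates 1 and 2, and without replicate 1 the bound was 13.2-fold. Without the 4 libraries with much tail-less RNA the call was lost (adjusted p = 0.327), and no fold can be given there, since the AG120 library that remained had 2 counts, under the floor. After vehicle its log2 fold change was -2.21 ± 1.67 (SE, adjusted p = 0.29). With the tail-less sum as a term in the model HIST1H3B was called lower after vehicle too (-5.37, adjusted p = 0.0110), and without the 4 libraries it was not (adjusted p = 0.0778). Both HIST2H2AC and HIST1H3B passed the filter only with the help of libraries without Nutlin. With HIST1H3B set to its bound, the median of the 25 after AG-120 stayed at 0.79.

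The other 9 tested members were not called in either Nutlin comparison. HIST1H2AG (H2A) was the best measured, with 5.12, 4.93 and 4.53 CPM in the AG120_Nutlin libraries, 4.87, 3.42 and 5.47 in vehicle_Nutlin, 4.71, 4.56 and 2.21 in AG120 and 3.51, 2.32 and 3.09 in vehicle; its log2 fold changes were 0.34 ± 0.27 (SE, adjusted p = 0.322) after AG-120 and 0.63 ± 0.28 (SE, adjusted p = 0.0746) after vehicle. Once the 4 libraries with much tail-less RNA were left out, it was called higher after vehicle (0.79, adjusted p = 0.0157). Its log2 fold change after AG-120 was then 1.18, against AG120 replicate 3 alone. HIST4H4, the lone H4 gene of chromosome 12, had 1.02, 1.08 and 0.823 CPM in the AG120_Nutlin libraries, 0.106, 0.719 and 0.898 in vehicle_Nutlin, 1.8, 1.08 and 0.791 in AG120 and 0.602, 0.622 and 0.688 in vehicle, with -0.33 (adjusted p = 0.601) and -0.14 (adjusted p = 0.852). The pseudogene HIST2H2BC had 0.50 (adjusted p = 0.369) and -1.08 (adjusted p = 0.0621). HIST1H1E, HIST1H2BF, HIST1H2BN, HIST1H4E, HIST1H4I and HIST2H2BF averaged 2 CPM or less in every group. HIST1H4I lies within the annotated span of HIST1H2BK, and HIST2H2BF overlaps an antisense entry, so that reads of such neighbours may be mixed where strand was not used.

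The 15 members left out of the test had few counts. The filter asks for a level near 0.520 CPM in 3 libraries, so members whose counts sit in fewer libraries are among them by design. They were HIST1H4C, HIST1H3C, HIST2H3D, HIST1H3A, HIST1H2BO, HIST1H4B, HIST3H2BB, HIST1H2AK, HIST1H1PS1, HIST1H2AH, HIST2H2AA4, HIST1H3J, HIST1H1D, HIST1H2BE and HIST1H2AB. Together they summed to 1.81, 2.17 and 1.53 CPM in AG120_Nutlin, 2.38, 1.8 and 1.92 in vehicle_Nutlin, 11.3, 4.27 and 0.949 in AG120 and 1.35, 1.75 and 1.72 in vehicle. AG120 replicate 1 was the highest library for 10 of the 15, and for 18 of all 40 members. The share of all genes that were highest in that library was not counted. HIST1H4B (H4) is an example, with counts of 0, 1 and 0 in AG120_Nutlin, 0, 0 and 0 in vehicle_Nutlin, 48, 7 and 0 in AG120 and 0, 2 and 1 in vehicle. HIST1H3C (H3) had 0, 0 and 0 in AG120_Nutlin, 1, 0 and 2 in vehicle_Nutlin, 46, 23 and 3 in AG120 and 4, 5 and 6 in vehicle, at least 20.6-fold lower in AG120_Nutlin than in AG120 against the same floor, and at least 11.9-fold without AG120 replicate 1. HIST1H2AH and HIST1H2AB (H2A) had 0 counts in all 6 Nutlin libraries, with 17, 7 and 1 and 18, 4 and 0 in AG120 and 0, 3 and 1 and 0, 1 and 1 in vehicle. In AG120 replicate 3 alone, all 4 of these genes were at or under the floor of 3 counts.

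These levels were set beside the RNAs without a poly(A) tail as a check of carry-over. RPPH1, the RNA of RNase P, had 0.121, 0.394 and 43 CPM in the AG120_Nutlin libraries, 0.371, 174 and 0.513 in vehicle_Nutlin, 19.9, 24.6 and 0.264 in AG120 and 0, 0 and 0.928 in vehicle. RN7SK, a regulator of transcription elongation, had 2.59, 3.99 and 27.7 CPM in the AG120_Nutlin libraries, 1.69, 163 and 1.15 in vehicle_Nutlin, 68, 19.4 and 1.11 in AG120 and 1.0, 1.19 and 3.54 in vehicle. RMRP, the RNA of RNase MRP, had 0.301, 1.04 and 15.2 CPM in the AG120_Nutlin libraries, 1.01, 77.5 and 0.47 in vehicle_Nutlin, 23.6, 8.39 and 0 in AG120 and 0, 0.0566 and 1.17 in vehicle. All 3 were called higher under Nutlin after vehicle (adjusted p = 0.0346, 0.0404 and 0.0385) and none after AG-120 (adjusted p = 0.98, 0.468 and 0.64). Nearly all of these counts in vehicle_Nutlin came from replicate 2, and the other 2 libraries of that group lay within the range of vehicle.

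The large members were at similar levels in Nutlin libraries with little and with much of this RNA. The H1, H2A and H2B members summed to 398, 407 and 406 CPM in AG120_Nutlin and 383, 381 and 459.7 in vehicle_Nutlin, where the tail-less sum ran from 2.14 to 415 CPM, against 106, 117 and 110 in AG120 and 89.8, 87.1 and 83.1 in vehicle. With the 4 libraries high in tail-less RNA left out, the log2 fold change of HIST1H2AC was 2.24 after AG-120 and 3.22 after vehicle, and that of HIST2H2BE 3.35 and 3.59. All 14 calls after vehicle were kept. After AG-120, where AG120 kept replicate 3 alone, HIST1H3B and HIST2H2BD lost their calls. With the tail-less sum as a term in the model, all 14 calls in each comparison were kept.

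**Figure D4:**
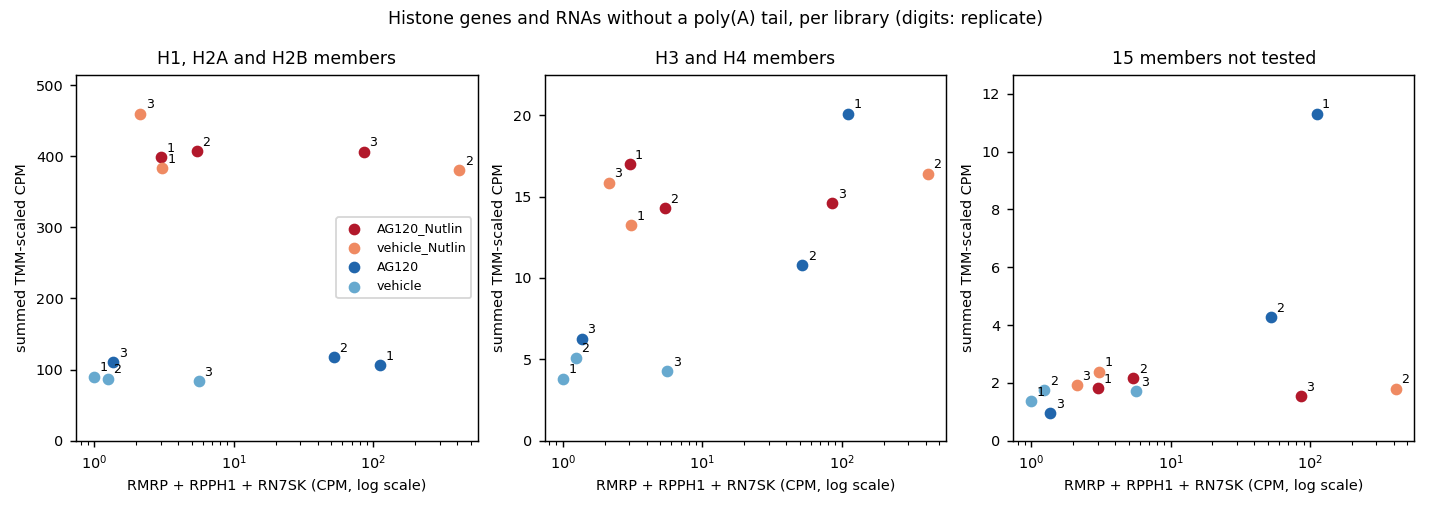
Summed CPM of the H1, H2A and H2B members (left), of the H3 and H4 members (middle) and of the 15 members not tested (right) against the summed CPM of RMRP, RPPH1 and RN7SK on a log axis; each point is a library, labelled by replicate. The left panel separates by Nutlin at any level of tail-less RNA, and in the right panel AG120 replicates 1 and 2 (11.3 and 4.27 CPM) stand above the other 10 libraries, vehicle_Nutlin replicate 2 among them (1.80 CPM).

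The low members showed another pattern. H3 and H4 members summed to 20.1, 10.8 and 6.27 CPM in AG120 and 3.81, 5.09 and 4.26 in vehicle, so that AG120 replicates 1 and 2, which carried 111 and 52.4 CPM of tail-less RNA, were the highest without Nutlin. In vehicle_Nutlin replicate 2, with 415 CPM of tail-less RNA, H3 and H4 members summed to 16.4 CPM, the highest of its group. The other libraries of that group had 13.2 and 15.9 CPM. Its members not tested summed to 1.80 CPM, the lowest of its group, beside 2.38 and 1.92 CPM. That library was the highest of its group for 11 of 40 members. Whether RNA without a tail added to the low members in AG120 replicates 1 and 2 was not tested.

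Many clustered histone genes lie head to head and share 1 promoter region, so neighbours can be compared directly. HIST2H2BE and HIST2H2AC are such a pair, 292 bases apart on hg19: HIST2H2BE rose and HIST2H2AC fell in both pretreatments. HIST1H2BJ rose by 3.67 and 3.39 on the log2 scale after AG-120 and after vehicle, while HIST1H2AG, 290 bases away, had 0.34 and 0.63 and was not called. HIST1H2BC and HIST1H2AC, 218 bases apart, both rose in both pretreatments. HIST1H2BG rose in both, and its neighbour HIST1H2AE, 292 bases away, after vehicle. HIST1H3D rose after vehicle, and HIST1H2BF, 226 bases away, was not called (adjusted p = 0.842). The difference between neighbours was not itself tested.

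**Figure D5:**
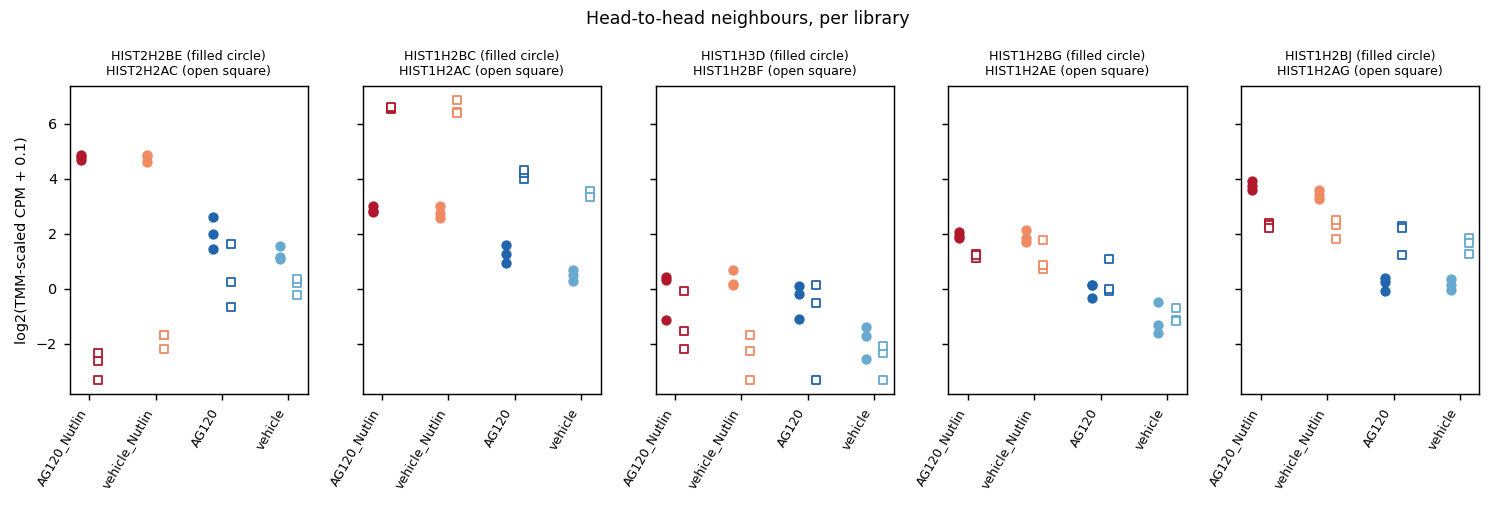
log2(CPM + 0.1) of 5 head-to-head pairs in each library, by group; filled circles are the first gene named above a panel and open squares the second. HIST2H2BE is high and HIST2H2AC low in the Nutlin groups, whereas HIST1H2BC and HIST1H2AC move together.

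The promoter windows of the divergent pairs are shown because both genes of a pair read from nearly the same bases. In the RefSeq table (GRCh38.p14, 250 bases before to 50 after each gene start), 26 of the 40 members matched by symbol. The windows of HIST2H2BE and HIST2H2AC share 265 of 300 bases, and those of HIST1H2BJ and HIST1H2AG 253. Windows were searched on both strands for CCAAT (bound by NF-Y), TATAAA (the TATA box) and ATTTGCAT (the octamer bound by POU2F1, known for H2B genes), and for a p53 half-site. Below, capitals mark the first 3 of these on either strand, so that the reverse complement of each is in capitals too. Where TATAAA and its reverse complement overlap they form 1 run of capitals.
HIST2H2BE, chr1:149886633-149886932, minus strand: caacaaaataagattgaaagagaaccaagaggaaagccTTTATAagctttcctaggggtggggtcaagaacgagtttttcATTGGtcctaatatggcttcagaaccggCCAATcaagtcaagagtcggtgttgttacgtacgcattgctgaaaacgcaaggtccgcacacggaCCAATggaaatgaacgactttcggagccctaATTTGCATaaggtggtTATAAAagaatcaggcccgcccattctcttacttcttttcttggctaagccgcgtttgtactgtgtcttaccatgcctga
HIST1H2BJ, chr6:27132746-27133045, minus strand: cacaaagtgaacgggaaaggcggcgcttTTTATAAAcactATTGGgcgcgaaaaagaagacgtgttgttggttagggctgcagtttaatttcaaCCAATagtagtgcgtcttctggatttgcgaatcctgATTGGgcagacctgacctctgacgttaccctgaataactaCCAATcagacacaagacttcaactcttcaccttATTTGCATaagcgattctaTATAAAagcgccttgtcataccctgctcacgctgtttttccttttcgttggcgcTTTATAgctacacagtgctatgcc
HIST1H2AC, chr6:26123922-26124221, plus strand: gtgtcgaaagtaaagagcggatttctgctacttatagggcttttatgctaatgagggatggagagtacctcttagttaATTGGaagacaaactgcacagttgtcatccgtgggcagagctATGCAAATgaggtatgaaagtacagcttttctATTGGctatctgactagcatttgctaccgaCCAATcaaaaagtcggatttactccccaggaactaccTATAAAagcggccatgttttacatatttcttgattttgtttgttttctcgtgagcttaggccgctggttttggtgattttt
CCAAT was found in 22 of the 26 windows, against 34.6% of all 35116 promoters in the table. TATAAA was found in 16 (11.5% of all), the octamer in 9 (1.77% of all) and the p53 half-site in 2 (6.63% of all). The octamer was present in 5 of 8 H2A and 4 of 6 H2B windows and in no H1, H3 or H4 window, and CCAAT was present in 1 of 5 H4 windows. HIST2H2AC, which fell, held the same 3 kinds of motif as HIST2H2BE, which rose, as their shared window implies. These are matches of letters and not measured binding sites.

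The members that rose were found on both sides of a split by annotated length. Of 15 tested members with an annotated span over 1000 bases, 7 were called higher after AG-120 and 8 after vehicle. Of the 10 shorter ones, 5 and 5 were called. Of the 16 tested members whose annotated transcript runs over 100 bases past the stem-loop, 8 were called higher after AG-120 and 7 after vehicle. Of the other 9, 4 and 6 were called. HIST1H2BK, HIST1H3D, HIST2H2AC and HIST1H3B are among these 9. Their only GENCODE transcripts, of 381 to 411 bases, hold no stem-loop. The counted gene model of HIST1H2BK spans 8547 bases, so the models behind this split are not those that were counted. The split therefore does not tell whether reads of these members run past a stem-loop. With members that have a spliced annotated transcript added to the 16, 10 of 18 were called higher after AG-120 and 9 after vehicle. Of the remaining 7, which still include HIST1H2BK, HIST1H3D, HIST2H2AC and HIST1H3B, 2 and 4 were called. These counts stand beside 27.0% and 26.8% of all tested genes called higher after AG-120 and after vehicle. Of the 7 listed genes known from other cells to give poly(A) transcripts, 7 rose in each comparison, but that list was drawn up with these results known.

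No member was called by the main test for AG-120 alone. Comparing AG120 with vehicle, edgeR called 0 of the 25 higher and 0 lower at an adjusted p of at most 0.05 (smallest 0.113), against 0.0510% and 0% of all tested genes. The direction was uneven all the same: 22 of 25 log2 fold changes were positive, with a median of 0.76 beside 0.00 over all genes, and 12 had an unadjusted p under 0.05, all of them higher, as were 4.82% of all genes. HIST1H1E, HIST1H2BF, HIST1H3B and HIST1H4E passed the filter only with the help of AG120 libraries, which favours positive estimates in them. HIST1H3B also needed vehicle libraries to pass, and HIST1H2BF also needed AG120_Nutlin libraries. HIST1H2AC had the smallest p, with a log2 fold change of 0.73 ± 0.14 (SE, adjusted p = 0.113) (unadjusted p = 1.87e-04), and HIST1H4H followed with 1.37 ± 0.29 (SE, adjusted p = 0.152). DESeq2 called both of them (adjusted p = 0.00530 and 0.0268) and no other. DESeq2 gave no adjusted p for some low members, among them HIST1H3B, HIST2H2AC and HIST2H2BD, so it could not call them. That held here, in AG120_Nutlin against vehicle_Nutlin and in the interaction. limma with voom and library weights called 4, namely HIST1H1C, HIST1H2AC, HIST1H2BK and HIST1H4H, and so did edgeR without 3 libraries that stood apart from their groups (vehicle_Nutlin replicates 2 and 3 and AG120 replicate 1). Without the 4 libraries with much tail-less RNA, AG120 kept 1 library, assumed to vary like the others, and the lean was weaker: 14 of 24 members were positive, with a median of 0.22, beside 48.1% of all genes positive, and none was called. HIST1H1E was no longer tested. HIST1H2AC had 0.87 and HIST2H2BE 0.16 on the log2 scale, while HIST1H2AG turned to -0.43 (0.37 with all libraries), HIST2H2AC to -0.90 (0.65) and HIST1H3B to -1.26 (2.66). With the tail-less sum as a term, 19 of 25 were positive, with a median of 0.55.

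Under Nutlin, AG-120 made no called difference either. Comparing AG120_Nutlin with vehicle_Nutlin, edgeR called 0 of 25 in each direction (smallest adjusted p 0.156), against 0.433% of all tested genes called higher and 1.93% called lower. DESeq2 and voom also called 0, and 2 members had an unadjusted p under 0.05, 1 in each direction, against 7.96% of all tested genes higher and 11.6% lower: HIST2H2BD (1.33 ± 0.48 (SE, adjusted p = 0.156)) and HIST3H2A (-0.43 ± 0.18 (SE, adjusted p = 0.219)). For HIST1H2BK, HIST1H2AC and HIST2H2BE the log2 estimates were -0.00 ± 0.14, -0.01 ± 0.13 and -0.00 ± 0.21 (SE). The interaction, which asks whether the Nutlin response differed between pretreatments, was called for 0 of 25 by edgeR (smallest adjusted p 0.153), against 0.0319% of all genes called higher and 0.331% called lower. Of the 25, 22 had a negative estimate and 3 a positive one, beside 49% of all genes positive, and 10 had an unadjusted p under 0.05, 2 higher and 8 lower, against 3.72% and 7.3% of all genes. A negative estimate stands for a smaller rise after AG-120 in a member that rose, and for a larger fall in HIST2H2AC and HIST1H3B. HIST1H1E, HIST1H2BF, HIST1H3B and HIST1H4E, which needed AG120 libraries to pass the filter, are among the 22. That need favours a negative estimate, though HIST1H2BF also needed AG120_Nutlin libraries and HIST1H3B vehicle libraries. Without the 4 libraries with much tail-less RNA, 13 of 24 were negative. For HIST1H2AC it was -0.74 ± 0.19 (SE, adjusted p = 0.153) and for HIST2H2BE -0.83 ± 0.33 (SE, adjusted p = 0.376). DESeq2 called 0 and voom 1, HIST1H2AC (-0.63, adjusted p = 0.00555). The interaction shares the AG120 and vehicle libraries with the comparisons above, so the negative estimates here and the positive ones in AG120 against vehicle are not separate observations.

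Genes of S phase and of histone gene transcription mostly fell under Nutlin. The counts for these and the following lists stand beside 27.0% of all tested genes higher and 28.8% lower after AG-120, and 26.8% and 27.1% after vehicle. Of 30 S-phase genes, 2 rose and 27 fell after AG-120, and 1 rose and 27 fell after vehicle, with median log2 fold changes of -2.77 and -2.94. TK1, thymidine kinase, had log2 fold changes of -7.13 and -6.48, and MCM4, MCM6 and MCM5 of the replicative helicase had -2.85 and -3.21, -3.63 and -3.45, and -3.10 and -3.19 after AG-120 and after vehicle. Of 14 factors that drive histone gene transcription, 4 rose and 9 fell in each comparison, with medians of -0.94 and -1.0. E2F1 had -5.51 and -4.70, CDK2, the cyclin E partner kinase, -2.56 and -2.50, its activator CDC25A -3.50 and -3.30, and CCNE2, cyclin E2, -3.39 and -4.04, all called.

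Of 21 factors of histone mRNA 3′ end processing, 5 rose and 10 fell after AG-120, and 4 rose and 10 fell after vehicle, with medians of -0.38 in both. SLBP, the stem-loop binding protein, averaged 47.4 ± 3.23 CPM in AG120_Nutlin and 111 ± 17.5 CPM in AG120, and 51.9 ± 7.82 CPM in vehicle_Nutlin and 144 ± 3.97 CPM in vehicle, with log2 fold changes of -1.23 ± 0.13 (SE, adjusted p = 4.26e-06) and -1.47 ± 0.13 (SE, adjusted p = 8.61e-07). ERI1, an exonuclease that trims histone mRNA, fell (-1.34 and -0.99), as did the Sm protein gene SNRPF (-1.12 and -1.18), whereas CPSF4 rose (1.61 and 1.52). Of 11 factors of polyadenylation, 3 rose and 3 fell after AG-120, and 2 rose and 5 fell after vehicle, with medians of -0.23 and -0.15. The shares after AG-120 were close to those of all genes. Among the called ones were the cleavage factor genes NUDT21 (-1.0 and -0.97) and CPSF6 (-0.61 and -0.64) lower and CLP1 (1.37 and 1.08) and the poly(A) polymerase gene PAPOLG (1.08 and 0.85) higher. Of 9 histone mRNA decay factors, 3 rose and 1 fell after AG-120, and 2 rose and 2 fell after vehicle, close to the shares over all genes, with medians of 0.43 and 0.07. Terminal uridylyltransferase genes were on the rising side, ZCCHC6 at 0.95 and 0.74 and TUT1 at 0.79 and 0.53, and the exosome gene EXOSC10 fell (-0.45 and -0.65).

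Histone chaperones, which carry new histones to DNA, mostly fell: 2 rose and 13 fell of 19 after AG-120, and 1 rose and 14 fell after vehicle, with medians of -1.20 and -1.13. HJURP, the chaperone of the centromeric H3 variant, had -7.17 and -6.01, ASF1B -5.48 and -5.30, CHAF1B of the replication-coupled assembly factor -2.34 and -2.55, and ANP32E -2.33 and -2.40. Variant histone genes lie outside the clusters and mostly give poly(A) transcripts. Of 12 tested, 2 rose and 5 fell after AG-120, and 3 rose and 6 fell after vehicle, with medians of -0.14 and -0.50. H2AFX, which also gives a short transcript that ends in a stem-loop, had -3.53 ± 0.13 (SE, adjusted p = 1.62e-10) and -3.40 ± 0.13 (SE, adjusted p = 2.34e-10), the centromeric CENPA had -7.08 and -6.94, H2AFZ -2.06 and -2.19, and the linker variant H1F0 -1.14 and -1.44.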

How the data were processed

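Per the labels' protocols, poly(A) RNA was captured and sequenced as paired reads on a NovaSeq. The authors deposited 1 table of raw counts per gene for the 12 libraries. The submitters' processing notes name Partek, STAR, HTSeq, DESeq2 and hg19, without versions or roles; strandedness is not given in the sources used here.

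Counts were tested with edgeR 4.0.16 (R 4.3.3): TMM scaling, filterByExpr on the 4 groups (cutoff near 0.520 CPM in 3 libraries), 1 quasi-likelihood fit with a term per group, and Benjamini-Hochberg adjustment over all 15691 tested genes in each comparison, at an adjusted p of at most 0.05. SE is the log2 fold change divided by the square root of F. Alternatives used DESeq2 1.42.0, limma 3.58.1 (voom with quality weights), other scalings and filters, left-out libraries, the tail-less RNA sum as a covariate and a replicate block. The test was checked on simulated counts in which a small set of genes changed, evenly up and down, in vehicle_Nutlin only. That setting does not cover the many genes called under Nutlin here or the uneven tail-less RNA. Floors are 3 counts over a group, and intervals cover counting error only. Stop coordinates were reduced by 1, after 13 of 13 mitochondrial genes were found to be 1 base too long.

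The members, the gene lists and the alternatives were chosen with earlier results of these data known. Values per library were given for the members with the highest mean CPM, up to 24, and from each other list for up to 4 genes with the smallest adjusted p after vehicle. Members named beyond these were chosen after their values were seen.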

Additional observations from a re-analysis of the deposited data

How the results depend on the processing

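The 13 calls of higher and 1 of lower under Nutlin after vehicle were kept in every refit listed here, and those after AG-120 in all but 3: a filter of 1 CPM in 3 libraries and the refit without high tail-less RNA kept 12 of 14, and a fit of the compared groups only kept 13. The refit without high tail-less RNA leaves AG120 replicate 3 alone in its group. The refit without the libraries that stood apart leaves vehicle_Nutlin replicate 1 alone in its group. Calls that use those groups there rest on a single library. No sign of a called member reversed. Some refits added calls of higher, among them HIST1H2AE after AG-120 with voom and without AG120 replicate 1. Calls of lower after vehicle numbered 2 with library totals, without the libraries that stood apart and with tail-less RNA as a covariate, 0 among members of at least 200 summed counts, and 1 to 2 with 1 library left out (2, with HIST2H2BC added, without vehicle_Nutlin replicate 3 or vehicle replicate 3). Library totals also moved the median of all genes to -0.10. Calls of lower after AG-120 numbered 9 with no filter, 1 with the 1 CPM filter, in the compared groups only and without high tail-less RNA, 0 among members of at least 200 counts, and 2 to 5 with 1 library left out. They numbered 4 without AG120_Nutlin replicate 1 or vehicle_Nutlin replicate 2 and 5 without vehicle_Nutlin replicate 3 or AG120 replicate 3, and in those refits HIST1H3C, HIST2H3D and HIST1H1E were the added genes. DESeq2, DESeq2 size factors and library totals also added HIST1H1E. AG120 against vehicle had 6 higher with no filter, 2 with DESeq2, 4 with voom, 4 without the libraries that stood apart, and 0 to 2 with 1 library left out (2 without vehicle_Nutlin replicate 3). In AG120_Nutlin against vehicle_Nutlin, HIST4H4 had a log2 fold change of 3.15 without the libraries that stood apart. That value is set against vehicle_Nutlin replicate 1 alone, where HIST4H4 was lowest in its group. The interaction had 1 lower (HIST1H2AC) with no filter and with voom, and 0 to 1 with 1 library left out (1 without vehicle_Nutlin replicate 3). Without the libraries that stood apart it was -0.65 for HIST1H2AC. The causes were not tested, apart from the change in the number of members tested. Same-numbered libraries had deviations correlated at -0.22 to 0.12. With 3 libraries per group this does not settle whether the numbers pair them, and the labels do not say. With a replicate block the counts were 13 and 1 after vehicle and 12 and 2 after AG-120. The 15 members not tested had few counts, several of them under 5 in most libraries, and small differences were not detectable at this depth.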
